A study of Mus musculus with 18 samples.

Results

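Kidneys taken 1 day after unilateral ischemia and reperfusion (UIR) were compared with kidneys of sham-operated mice taken later, at day 3 or day 21 after surgery. The comparison used the 3 RNA sequencing libraries labelled UIR_1d and the 6 libraries labelled Sham_3d and Sham_3w, 9 of the 18 libraries of the series, over the 14716 of 20825 genes that reached 1 FPKM in at least 3 of the 18. FPKM corrects fragment numbers for transcript length and sequencing depth, so levels of different genes can be set side by side per length. All mice were C57BL/6 and labelled as 11 weeks old, with 3 biological replicates per group. In UIR mice the pedicle of the right kidney was clamped for 45 minutes and released while the left kidney stayed in place. Sham mice served as controls without further detail of their operation. The labels name neither the kidney that was sequenced nor the sex of the mice. The UIR_1d and the later sham kidneys differ in the clamp and in the time since surgery, and within this comparison the effects of both cannot be told apart. The 3 Sham_1d libraries, which share the day but not the clamp, are therefore given beside many of the named genes. A fold or count given alone is over later sham kidneys and does not tell how the Sham_1d kidneys stood.

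Stopping the blood flow to a kidney deprives its tubules of oxygen, and the return of flow adds oxidative and inflammatory stress. Cells of the proximal tubule, which reabsorb most of the filtered solutes and depend on mitochondrial oxidation of fatty acids, are known as the most sensitive. Injured tubule cells switch on keratins, secreted injury proteins and stress-induced transcription factors, and lower the transporters and metabolic enzymes of the differentiated epithelium.

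The UIR_1d kidneys had higher transcripts of tubular injury, immediate early transcription factors, inducible chaperones, the actin cytoskeleton and ribosome assembly. They had lower transcripts of proximal tubule transporters, amino acid and fatty acid catabolism, NAD synthesis with the kynurenine pathway, and the respiratory chain. In all, 10528 of 14716 genes (71.5%) passed an adjusted p of 0.05 in limma's moderated test, 5826 higher (39.6%) and 4702 lower (32.0%) in UIR_1d kidneys. Of these, 1908 were higher and 1504 lower by at least 2-fold, and the median over all genes tested was a log2 fold of 0.06. All 3 UIR_1d values lay outside the range of the 6 later sham values for 59.5% of genes. The share of members called in each list below has to be read against these shares. The lists were written with earlier results of these data known. Their counts and motif shares therefore describe the members and are not an independent test. Fold changes are UIR_1d over later sham on the log2(FPKM + 1) scale, which understates the change of genes with low FPKM, and are given ± SE from limma with Benjamini-Hochberg adjusted p-values.

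The libraries themselves differed in composition. Between 12271 and 12464 genes reached 1 FPKM in UIR_1d libraries and between 12000 and 12259 in later sham libraries, and the 10 most abundant genes took 12.9% to 15.4% of the FPKM sum in UIR_1d libraries and 17.4% to 19.7% in later sham libraries. Neither range overlapped, with the smallest p that an exact two-sided permutation test of 3 against 6 libraries can give (p = 0.0238 each). The 2 later sham groups differed little from each other, with 5 of 14716 genes past limma's threshold (0.034%), 2 higher (0.0136%) and 3 lower (0.0204%) in Sham_3w, although 2284 passed an unadjusted p of 0.05 and the count of 5 became 419 without Sham_3d replicate 3 and 0 without Sham_3d replicate 1 or 2. UIR_1d replicate 3 stood apart from the other 2 UIR_1d libraries at several genes given below.

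The genes with the highest rises were a keratin, a secreted iron-binding protein and proteins of the cornified envelope. The transcript of Krt20 (Entrez Gene 66809), an intermediate filament keratin, was at 1113, 1374 and 993 FPKM in UIR_1d kidneys, 19.5, 5.96 and 27.4 FPKM in Sham_1d kidneys, and 0.16, 0.49 and 1.43 FPKM in later sham kidneys (lowest, median and highest of 6). Every UIR_1d value lay far above every other value, and the Sham_1d values lay between the other groups. The log2 fold was 9.50 ± 0.34 over later sham (limma adjusted p = 2.19e-12). Lcn2 (16819), which encodes the iron-binding injury protein NGAL, was at 2357, 1486 and 3001 FPKM in UIR_1d kidneys, 188, 102 and 216 FPKM in Sham_1d kidneys and 1.08, 2.29 and 4.25 FPKM in later sham kidneys, a log2 fold of 9.35 ± 0.33. Here the Sham_1d values were closer to the UIR_1d than to the later sham values on the log2 scale, with log2 folds of 3.76 for UIR_1d over Sham_1d and 5.59 for Sham_1d over later sham. Havcr1 (171283), the receptor KIM-1 with which injured proximal tubule cells take up dead cells, was at 71.5, 106 and 307 FPKM in UIR_1d kidneys, 47.3, 18.5 and 26.8 FPKM in Sham_1d kidneys and 0.56, 0.715 and 5.54 FPKM in later sham kidneys. The groups did not overlap, UIR_1d replicate 3 was the highest, and the log2 fold was 5.82 ± 0.49 (limma adjusted p = 2.46e-08).

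All 33 tested members of a list of tubular injury genes were higher, with a median log2 fold of 4.25, and for 32 of them the groups did not overlap (59.5% over all genes). Their summed level was 18185 to 35901 FPKM in UIR_1d kidneys, 3083 to 4051 FPKM in Sham_1d kidneys and 957 to 1252 FPKM in later sham kidneys. For UIR_1d over Sham_1d their median log2 fold was 2.42, with 32 higher and none lower (59.6% of all genes called, 28.5% higher). For Sham_1d over later sham it was 1.61, with 27 higher and none lower (46.1% of all genes called, 31.9% higher). The cornified envelope proteins Sprr2f (7.84 ± 0.25), Sprr2g (7.29 ± 0.20) and Sprr1a (7.03 ± 0.20), known from squamous epithelium, were under 1 FPKM in all later sham kidneys. Gprc5a (6.30 ± 0.24), an orphan receptor, was also among the 12 largest rises. The Sprr2 genes have close copies among which reads may have been divided. The tight junction protein Cldn4 was at 585, 906 and 709 FPKM in UIR_1d kidneys, 36.5, 24.1 and 40.4 FPKM in Sham_1d kidneys and 8, 9.16 and 11.7 FPKM in later sham kidneys. Plaur, the receptor of urokinase, was at 231, 225 and 137 FPKM in UIR_1d kidneys, 13.7, 9.43 and 13.3 FPKM in Sham_1d kidneys and 0.77, 1.31 and 2.39 FPKM in later sham kidneys. For both genes the 3 groups formed separate ranges with UIR_1d kidneys highest. The smallest rises were in Vcam1 (0.71), an adhesion molecule, the integrin subunit Itgb6 (0.67) and the protease Plau (0.58), the ligand of Plaur. Plau did not pass limma's threshold without UIR_1d replicate 1 (adjusted p = 0.209) or replicate 2 (0.194). Ereg, an epidermal growth factor ligand, was in the list but below 1 FPKM in every library compared and was not tested.

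Spp1, the secreted matrix protein osteopontin, was at 8678, 7666 and 21488 FPKM in UIR_1d kidneys, against 1993, 1666 and 2207 FPKM in Sham_1d kidneys and 363, 439 and 523 FPKM in later sham kidneys. Clu, the secreted chaperone clusterin, was at 1838, 2014 and 5177 FPKM in UIR_1d kidneys, 645, 566 and 605 FPKM in Sham_1d kidneys and 176, 191 and 249 FPKM in later sham kidneys. In both, UIR_1d replicate 3 held more than the other 2 UIR_1d libraries, and no UIR_1d value reached down to the later sham range. Sox9, a transcription factor of tubule repair, rose by 4.25 ± 0.27 on the log2 scale and was under 1 FPKM in all 6 later sham kidneys.

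**Figure D1:**
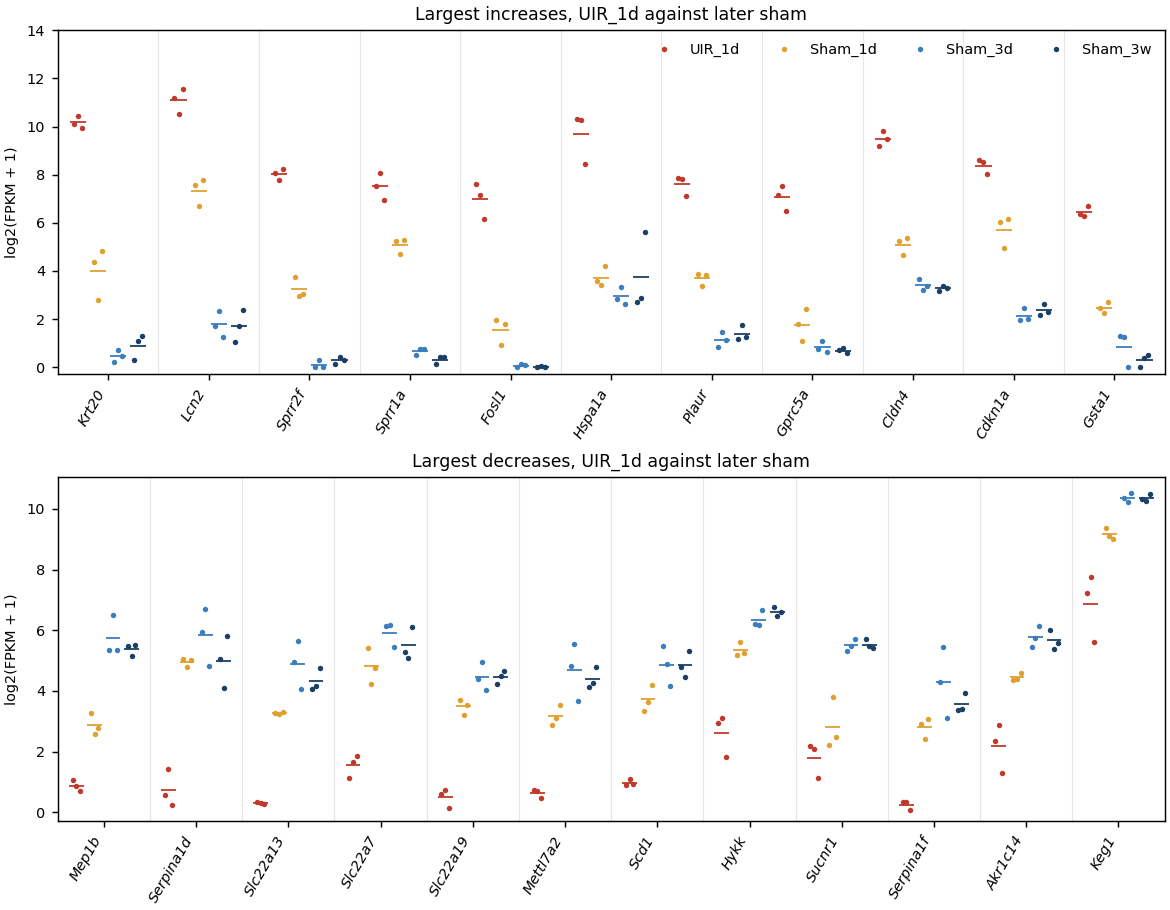
Level of each gene in each library as log2(FPKM + 1), for 11 of the 12 largest increases and the 12 largest decreases, with UIR_1d, Sham_1d, Sham_3d and Sham_3w libraries as points from left to right and horizontal bars at the group means (3 libraries each). The UIR_1d points lie outside the later sham points at every gene, as the rule that chose the genes required, and most Sham_1d points lie between them.

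The promoters of the injury genes were read for the letters to which AP-1 transcription factors bind, since many AP-1 subunits rose. RefSeq promoters (GRCm38.p6, 250 bases before to 50 after the start) were at hand for 20 of the tested members. The AP-1 motif TGANTCA, a palindrome that reads the same on both strands, stood in 7 of these 20 promoters (35.0%) and in 766 of the 11448 promoters of all genes tested (6.69%). A motif overlapped a match to the antioxidant response element TGACNNNGC in 1 of the 20 and in 59 of the 11448. A match describes letters only, and the list was chosen with earlier results of these data known. The 4 promoters below belong to genes with large rises, with the motif in capitals, 5′ to 3′ on the gene's strand.
Sprr2f, plus strand, chr3:92364937-92365236: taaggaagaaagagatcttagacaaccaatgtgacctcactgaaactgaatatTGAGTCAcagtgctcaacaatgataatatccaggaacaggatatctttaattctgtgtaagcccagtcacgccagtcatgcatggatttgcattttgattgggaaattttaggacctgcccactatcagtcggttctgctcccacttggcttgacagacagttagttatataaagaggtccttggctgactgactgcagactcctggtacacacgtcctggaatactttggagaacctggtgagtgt
Sprr1a, minus strand, chr3:92485832-92486131: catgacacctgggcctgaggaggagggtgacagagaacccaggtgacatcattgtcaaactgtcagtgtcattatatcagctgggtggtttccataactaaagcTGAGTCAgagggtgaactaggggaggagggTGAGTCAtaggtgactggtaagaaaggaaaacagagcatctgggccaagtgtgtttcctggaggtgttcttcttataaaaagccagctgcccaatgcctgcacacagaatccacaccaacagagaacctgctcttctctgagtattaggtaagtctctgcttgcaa
Cldn4, minus strand, chr5:134946885-134947184: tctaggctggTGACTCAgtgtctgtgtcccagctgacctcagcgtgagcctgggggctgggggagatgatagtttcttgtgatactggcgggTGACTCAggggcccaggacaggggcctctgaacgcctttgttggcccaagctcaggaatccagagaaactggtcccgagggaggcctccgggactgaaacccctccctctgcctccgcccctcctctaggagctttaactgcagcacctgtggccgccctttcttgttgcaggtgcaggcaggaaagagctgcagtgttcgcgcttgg
Plaur, plus strand, chr7:24462233-24462532: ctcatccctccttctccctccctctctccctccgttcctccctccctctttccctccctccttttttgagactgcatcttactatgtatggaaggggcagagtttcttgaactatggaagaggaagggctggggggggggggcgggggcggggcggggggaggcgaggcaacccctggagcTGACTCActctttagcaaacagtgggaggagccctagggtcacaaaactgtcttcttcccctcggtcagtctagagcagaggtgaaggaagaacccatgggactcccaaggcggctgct
Sprr1a and Cldn4 held 2 matches each. The motif began 69 bases before the start in Plaur and 197 bases before it in Sprr2f.

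Immediate early genes, which encode short-lived transcription factors and regulators switched on within minutes of a stimulus, were high at day 1. Of 25 tested, 24 were higher and none lower, with a median log2 fold of 3.18. Fosl1 (14283), an AP-1 subunit, was at 193, 142 and 70.4 FPKM in UIR_1d kidneys, 2.84, 0.91 and 2.47 FPKM in Sham_1d kidneys and 0, 0.02 and 0.09 FPKM in later sham kidneys, a log2 fold of 6.93 ± 0.24 (limma adjusted p = 2.09e-12). UIR_1d replicate 3 was the lowest of the UIR_1d libraries at Fosl1 and still far above all others. The same library was lowest for Atf3, a stress-induced repressor of the ATF family, at 160.1, 84 and 41.7 FPKM in UIR_1d kidneys, 9.35, 16.4 and 10.3 FPKM in Sham_1d kidneys and 0.39, 0.49 and 1.02 FPKM in later sham kidneys. Klf6, a zinc finger factor, was at 409, 351 and 205 FPKM in UIR_1d kidneys, 26.4, 27.5 and 32.1 FPKM in Sham_1d kidneys and 6.05, 7.99 and 9 FPKM in later sham kidneys. At both genes the 3 groups stood apart with Sham_1d in the middle. Maff (4.75 ± 0.14), a small Maf protein that pairs with NRF2, Myc (3.64) and the AP-1 subunits Jun (3.21), Junb (3.55) and Fos (3.19) also rose. Egr3 was the member not past the threshold (0.16). None of the 19 promoters at hand for this list held the AP-1 motif.

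Cytosolic chaperones responded in part. Of 22 tested, 13 were higher and 3 lower, with a median log2 fold of 0.84. The 22 included the mitochondrial chaperonins Hspd1 (0.52) and Hspe1 (0.47), which did not pass. Hspa1a, the inducible HSP70, was at 1256, 1248 and 344 FPKM in UIR_1d kidneys, 10.8, 9.61 and 17.3 FPKM in Sham_1d kidneys and 5.24, 6.25 and 47.4 FPKM in later sham kidneys. UIR_1d replicate 3 held the least of the UIR_1d libraries, the highest later sham value was that of Sham_3w replicate 3, and the groups did not overlap. The log2 fold was 6.33 ± 0.52 (limma adjusted p = 2.16e-08) over later sham, 5.95 over Sham_1d, and 0.38 for Sham_1d over later sham, which did not pass (limma adjusted p = 0.589). Reads of Hspa1a and its near-identical copy Hspa1b (5.84) may have been divided between them. The small heat shock protein Hspb1 was at 336, 377 and 229.8 FPKM in UIR_1d kidneys, 72.2, 37.2 and 60 FPKM in Sham_1d kidneys and 4.18, 5.87 and 13.3 FPKM in later sham kidneys, so that here the Sham_1d values were raised too. Cryab (3.66 ± 0.26), a small heat shock protein of lens and muscle, Hsp90aa1 (2.27), the inducible HSP90, and Hsph1 (2.06), a nucleotide exchange factor of HSP70, followed. The co-chaperones Fkbp4 (-0.96 ± 0.13), Chordc1 (-0.73 ± 0.17) and Ahsa1 (-0.40) of HSP90 fell.

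Chaperones of the endoplasmic reticulum did not follow the cytosolic ones. Of 20 endoplasmic reticulum chaperones tested, 3 were higher and 9 lower, with a median log2 fold of -0.21. The median was -0.05 without Sham_3d replicate 2 and -0.33 without UIR_1d replicate 2. Hspa5, the reticulum HSP70 known as BiP, was at 468, 633 and 274 FPKM in UIR_1d kidneys, 148, 173 and 122 FPKM in Sham_1d kidneys and 133, 161 and 469 FPKM in later sham kidneys. The groups overlapped through Sham_3d replicate 2, the highest later sham value, and the log2 fold was 1.21 ± 0.31 (limma adjusted p = 0.00217). The co-chaperone Dnajb9 (1.52 ± 0.12) and the transcription factor Xbp1 (0.78) rose. Pdia4 (-0.71 ± 0.18), a disulfide isomerase, and Calr (-0.64 ± 0.17), the calcium-binding chaperone calreticulin, fell. Sham_3d replicate 2 was also far above the other later sham libraries at Pdia4 and Calr, and against Sham_3w alone Calr did not pass (limma adjusted p = 0.0699).

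Targets of ATF4, the transcription factor of the integrated stress response that raises amino acid synthesis and uptake, were mostly higher. Of 24 tested, 19 were higher and 2 lower, with a median log2 fold of 2.14. Sham_1d over later sham gave 18 higher and 1 lower (31.9% and 14.1% over all genes), with a median of 0.92. Between UIR_1d and Sham_1d 12 were higher and 5 lower (28.5% and 31.1% over all genes), with a median of 0.74. Ppp1r15a, which reverses the block of translation in that response, was at 122, 97.3 and 103 FPKM in UIR_1d kidneys, 18.1, 16.5 and 18.5 FPKM in Sham_1d kidneys and 6.07, 7.09 and 8.65 FPKM in later sham kidneys. Asparagine synthetase, Asns, was at 18.8, 34.4 and 31.8 FPKM in UIR_1d kidneys, 12.8, 9.75 and 10.1 FPKM in Sham_1d kidneys and 1.1, 1.37 and 2.64 FPKM in later sham kidneys. Neither gene overlapped between any 2 of the 3 groups. The pseudokinase Trib3 (3.39 ± 0.20), the amino acid carrier Slc7a5 (3.06) and Atf4 itself (2.45) rose as well. Against the list, Shmt2, the mitochondrial serine hydroxymethyltransferase, fell to 41.6, 32.4 and 25.2 FPKM in UIR_1d kidneys, against 90.8, 124 and 93.9 FPKM in Sham_1d kidneys and 126, 144 and 151 FPKM in later sham kidneys. The amino acid response letters TGATGNAA, searched on both strands, stood in 7 of 22 promoters of the list (31.8%), against 326 of 11448 (2.85%).

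Targets of NRF2, the transcription factor that induces antioxidant enzymes, were higher at 16 of 21 and lower at 1, with a median log2 fold of 0.93. Sham_1d over later sham gave 16 higher and 2 lower (31.9% and 14.1% over all genes), with a median of 0.53. Between UIR_1d and Sham_1d 9 were higher and 7 lower (28.5% and 31.1% over all genes), with a median of 0.24. Srxn1, the sulfiredoxin that repairs peroxiredoxins, was at 735, 799.9 and 582 FPKM in UIR_1d kidneys, 113, 84 and 104 FPKM in Sham_1d kidneys and 20.8, 26.2 and 28.9 FPKM in later sham kidneys, a log2 fold of 4.71 ± 0.11 (limma adjusted p = 1.07e-13). Thioredoxin reductase Txnrd1 (2.58 ± 0.18), the cystine carrier Slc7a11 (2.21 ± 0.21) and the catalytic subunit of glutathione synthesis Gclc (1.94) rose. Hmox1, the heme-degrading oxygenase, was at 294, 197 and 122 FPKM in UIR_1d kidneys, 603, 251 and 358 FPKM in Sham_1d kidneys and 14.9, 25.6 and 28.2 FPKM in later sham kidneys. Both day-1 groups lay above later sham kidneys at Hmox1, and the UIR_1d kidneys were lower on average than the Sham_1d kidneys, with ranges that overlapped (log2 fold -0.97, limma adjusted p = 0.0126). Malic enzyme Me1 (-1.70 ± 0.22) fell. The antioxidant response letters TGACNNNGC, searched on both strands, stood in 9 of 18 promoters of the list, against 1923 of 11448 (16.8%).

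Targets of p53 were higher at 18 of 20 and lower at none, with a median log2 fold of 1.17. Sham_1d over later sham gave 17 higher and none lower (31.9% and 14.1% over all genes), with a median of 0.75. Between UIR_1d and Sham_1d 10 were higher and 1 lower (28.5% and 31.1% over all genes), with a median of 0.365. Cdkn1a (12575), the cell cycle inhibitor p21, was at 388, 366 and 257 FPKM in UIR_1d kidneys, 64.2, 29.6 and 69.6 FPKM in Sham_1d kidneys and 2.94, 3.67 and 5.21 FPKM in later sham kidneys. The groups were widely apart, with a log2 fold of 6.13 ± 0.22 over later sham, 2.68 over Sham_1d and 3.45 for Sham_1d over later sham. The kinase Plk3 (4.37 ± 0.30) and the stress cytokine Gdf15 (4.31 ± 0.21) rose, and Gdf15 was at 229, 104 and 146 FPKM in UIR_1d kidneys and 97.1, 127 and 135 FPKM in Sham_1d kidneys, which overlapped. Ccng1 (-0.14) and Sesn1 (0.03) did not pass. Of 28 cell cycle genes, 15 were higher and 2 lower, among the higher ones Mcm3 (1.02 ± 0.13), a helicase subunit that licenses DNA replication. Rrm2, a subunit of ribonucleotide reductase, was at 9.05, 10.7 and 13.9 FPKM in UIR_1d kidneys, 2.03, 1.44 and 2.18 FPKM in Sham_1d kidneys and 0.89, 1.43 and 2 FPKM in later sham kidneys, and Pcna, the sliding clamp of replication, rose by 1.23 ± 0.10 on the log2 scale. The proliferation marker Mki67 stayed under 1 FPKM in all 12 of these libraries and did not pass (log2 fold -0.16 ± 0.10, limma adjusted p = 0.153).

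**Figure D2:**
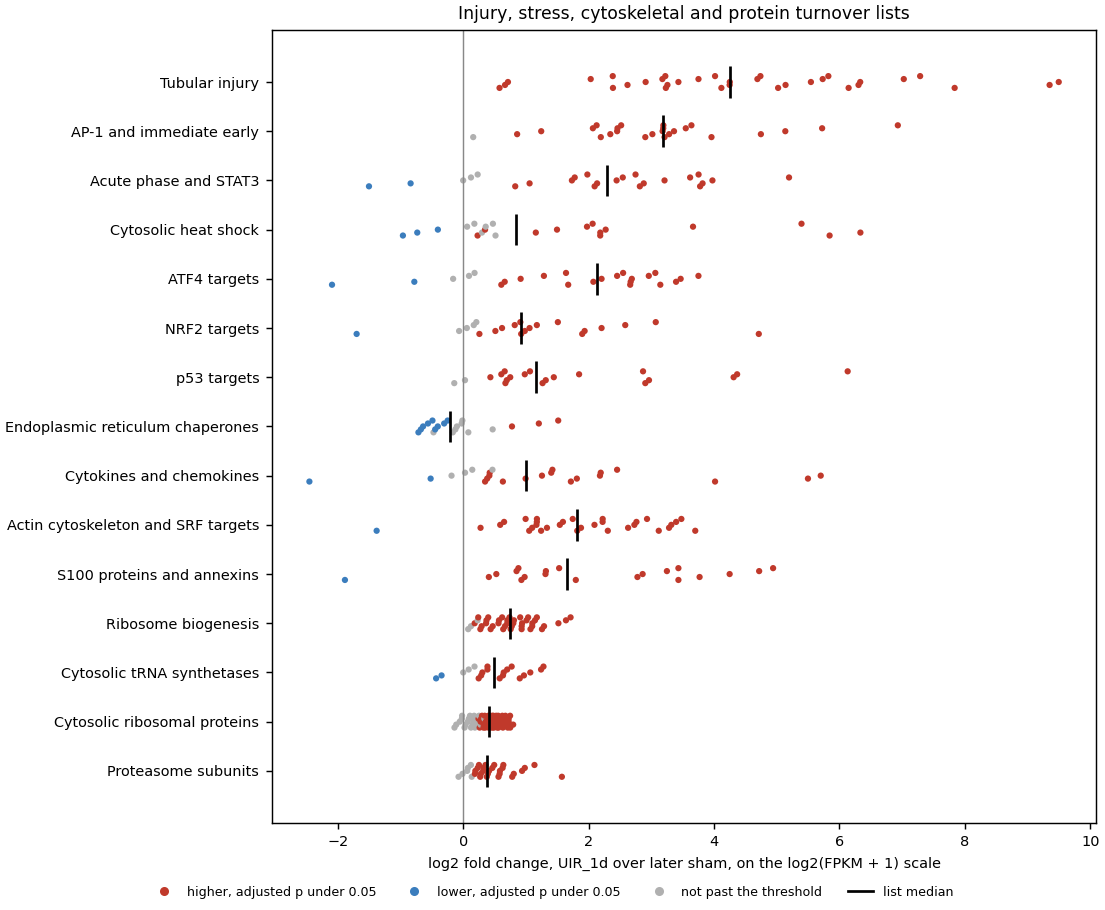
Log2 fold change of UIR_1d over later sham kidneys for each tested member of 15 gene lists, 1 point per gene, with the list median as a black bar and the result of limma's test over all genes as colour. Tubular injury and immediate early genes lie furthest to the right (medians 4.25 and 3.18), ribosomal proteins and proteasome subunits lie close to 0 (0.41 and 0.38), and reticulum chaperones lie on both sides.

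Genes of protein synthesis and degradation rose by smaller amounts. Ribosome biogenesis factors were higher at 37 of 40 and lower at none, with a median log2 fold of 0.75. Sham_1d over later sham gave 34 higher and none lower (31.9% and 14.1% over all genes), with a median of 0.50. Between UIR_1d and Sham_1d 23 were higher and 3 lower (28.5% and 31.1% over all genes), with a median of 0.32. The helicase Ddx21 (1.71 ± 0.08), which works on ribosomal RNA, was at 37, 44.6 and 34.5 FPKM in UIR_1d kidneys, 20.6, 21 and 21.2 FPKM in Sham_1d kidneys and 10.4, 10.9 and 12.3 FPKM in later sham kidneys, with every group apart from the next. Gar1 (1.64 ± 0.09), a protein of the small nucleolar particles that modify ribosomal RNA, did likewise. Cytosolic transfer RNA synthetases were higher at 15 of 20 and lower at 2, led by Gars (1.28 ± 0.06), which charges glycine. Of these 20, 17 were higher and none lower in Sham_1d over later sham (median 0.39). Between UIR_1d and Sham_1d 8 were higher and 3 lower (median 0.05). Proteasome subunits were higher at 25 of 31 and lower at none (median 0.38), led by Psmd11 (1.57 ± 0.07), a lid subunit. Cytosolic ribosomal proteins were higher at 56 of 77 and lower at none, with a median of 0.41, but the groups did not overlap at only 20 of them. Their summed level was 28060 to 34046 FPKM in UIR_1d kidneys, 23071 to 24105 FPKM in Sham_1d kidneys and 18823 to 30982 FPKM in later sham kidneys. Against Sham_3d alone 23 rose and 2 fell (median 0.21), and against Sham_3w alone 68 rose and none fell (median 0.61).

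Mitochondrial ribosomal proteins moved the other way, with 51 of 69 lower, 7 higher and a median log2 fold of -0.40. In Sham_1d over later sham 32 were lower and 5 higher (14.1% and 31.9% over all genes), with a median of -0.19. UIR_1d over Sham_1d gave 31 lower and 6 higher (31.1% and 28.5% over all genes), with a median of -0.18. Mrps2, a protein of the small subunit, was at 16.2, 16.3 and 13.4 FPKM in UIR_1d kidneys, 34.2, 35.4 and 32.5 FPKM in Sham_1d kidneys and 32.6, 32.9 and 35.1 FPKM in later sham kidneys, so that the Sham_1d and later sham ranges overlapped. Mrps21 (-1.18 ± 0.11) also fell, as did Mrps36 (-1.22 ± 0.13), whose place in the list rests on its symbol. Mrps6 (1.44 ± 0.17) and Mrpl52 (0.88 ± 0.19) rose against the list.

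The actin cytoskeleton and the targets of SRF, a factor that senses actin assembly, were higher at 30 of 31 and lower at 1, with a median log2 fold of 1.82. The crosslinker Actn1 was at 96.3, 112 and 91.6 FPKM in UIR_1d kidneys, 32.2, 27.5 and 27.4 FPKM in Sham_1d kidneys and 7.23, 8.9 and 11.1 FPKM in later sham kidneys. Connective tissue growth factor, Ctgf, was at 207, 239 and 171 FPKM in UIR_1d kidneys, 37.8, 27.6 and 36.6 FPKM in Sham_1d kidneys and 12.9, 16.3 and 29.1 FPKM in later sham kidneys. UIR_1d kidneys were highest at both, with no overlap. Filamin C, Flnc (3.70 ± 0.17), and the tubulin Tubb6 (3.40 ± 0.17) rose, and the smooth muscle light chain Myl9 (-1.38 ± 0.23) fell. S100 proteins and annexins, calcium-binding proteins of membranes and the cytoskeleton, were higher at 19 of 20 and lower at 1. The largest rise of this list was at S100a9 (4.94), given below with the neutrophil markers, and Anxa2 is also in the tubular injury list. Anxa2 was at 229, 388 and 418 FPKM in UIR_1d kidneys, 31.5, 26.2 and 29.9 FPKM in Sham_1d kidneys and 12.2, 14.7 and 29.1 FPKM in later sham kidneys, a log2 fold of 4.25 ± 0.21, and S100a6 rose by 3.77 ± 0.32. Anxa13, an epithelial annexin, fell by 1.89 on the log2 scale.

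Extracellular matrix genes were higher at 12 of 26 and lower at 6, or 3 without UIR_1d replicate 1, UIR_1d replicate 2 or Sham_3d replicate 2. Timp1, an inhibitor of metalloproteinases, was at 37.1, 28.5 and 63.8 FPKM in UIR_1d kidneys, 5.48, 3.16 and 3.07 FPKM in Sham_1d kidneys and 0, 0.275 and 0.69 FPKM in later sham kidneys, a log2 fold of 5.02 ± 0.21 (limma adjusted p = 1.25e-11). The 3 groups stood apart, and the matrix glycoprotein Tnc (3.14 ± 0.15) rose as well. The inhibitor Timp3 (-1.14 ± 0.12) and the fibrillar collagen chain Col1a1 (-0.92) fell. Col1a1 did not pass limma's threshold without UIR_1d replicate 1 (adjusted p = 0.142) or replicate 2 (0.185), nor without any one of 4 later sham libraries (0.0551 to 0.0659).

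Glycolysis and hypoxia genes were called in each direction at shares near those over all genes tested (39.6% higher, 32.0% lower). Glycolysis genes were higher at 8 of 17 and lower at 6, and genes of the hypoxia response were higher at 8 of 20 and lower at 7, with medians of 0.21 and -0.06. The glucose carrier Slc2a1 was at 192, 183 and 105 FPKM in UIR_1d kidneys, 28, 26.4 and 30.1 FPKM in Sham_1d kidneys and 16.6, 17.9 and 18.8 FPKM in later sham kidneys. Pkm, the pyruvate kinase of proliferating and injured cells, was at 503, 597 and 801 FPKM in UIR_1d kidneys, 124, 119.8 and 120.0 FPKM in Sham_1d kidneys and 89.9, 110.4 and 135 FPKM in later sham kidneys. Both were raised in all 3 UIR_1d libraries, while at Pkm the Sham_1d values fell within the later sham range. Hexokinase Hk2 (2.54 ± 0.17) and the platelet-type phosphofructokinase Pfkp (1.72 ± 0.08) rose, whereas the muscle-type Pfkm (-1.47 ± 0.13) and triose phosphate isomerase Tpi1 (-0.84 ± 0.07) fell. Among hypoxia genes the vasodilator peptide Adm rose (1.53 ± 0.11), and the angiogenic factor Vegfa (-1.02 ± 0.12) and the carbonic anhydrase Car9 (-1.59 ± 0.15) fell. Set against Sham_1d kidneys, Vegfa (-0.77) and Car9 (-0.43) were lower, and Adm did not pass (-0.28, limma adjusted p = 0.0781). The glycolysis median was 0.078 without UIR_1d replicate 3. The median of the hypoxia response list changed sign without UIR_1d replicate 1 (0.005) and without Sham_3d replicate 2 (0.034).

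Gluconeogenesis, by which the proximal tubule makes glucose, was lower at 5 of 7 and higher at none, with a median log2 fold of -1.61. G6pc, the glucose-6-phosphatase, was at 35.2, 31.3 and 23.9 FPKM in UIR_1d kidneys, 44.7, 30.4 and 44 FPKM in Sham_1d kidneys and 158, 189 and 316 FPKM in later sham kidneys. The 2 day-1 groups overlapped at G6pc, and both lay below the later sham kidneys. The carrier Slc37a4 (-1.88 ± 0.22) and the bisphosphatase Fbp1 (-1.61 ± 0.43) fell. Compared with Sham_1d kidneys, Slc37a4 was lower (-1.78) and Fbp1 did not pass (-0.49, limma adjusted p = 0.412). Pck1, which catalyses the first committed step, was at 486, 390.1 and 189 FPKM in UIR_1d kidneys, 2441, 2029 and 2636 FPKM in Sham_1d kidneys and 260.4, 677 and 827 FPKM in later sham kidneys. The UIR_1d and later sham values overlapped and did not pass (log2 fold -0.79 ± 0.36, limma adjusted p = 0.0579), and the Sham_1d values were above both. This call depended on single libraries and settings. Pck1 passed limma's threshold as lower without UIR_1d replicate 1 (-1.07, adjusted p = 0.0272), without Sham_3w replicate 2 (-0.99, 0.0159) and under 3 other settings (0.0236 to 0.0423), and without UIR_1d replicate 3 its log2 fold was -0.39.

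Fatty acid oxidation genes were lower at 28 of 36 and higher at 2, with a median log2 fold of -0.96. Acsm3, an acyl-CoA synthetase, was at 55.6, 53.1 and 30.8 FPKM in UIR_1d kidneys, 179, 124 and 149 FPKM in Sham_1d kidneys and 222, 277 and 360.2 FPKM in later sham kidneys. The dehydrogenases Acad11 (-1.89 ± 0.14) and Acadm (-1.88) fell. The 3 groups did not form a line for this pathway. The summed level of the list was 2353 to 2923 FPKM in UIR_1d kidneys, 8789 to 10356 FPKM in Sham_1d kidneys and 5111 to 5650 FPKM in later sham kidneys, with a median log2 fold of -1.28 for UIR_1d over Sham_1d (33 of 36 lower, against 31.1% of all genes) and 0.62 for Sham_1d over later sham (24 higher and 6 lower, against 31.9% and 14.1% of all genes). Pdk4, the kinase that shuts off pyruvate oxidation, rose against the list, at 264, 209 and 202 FPKM in UIR_1d kidneys, 262, 171 and 291 FPKM in Sham_1d kidneys and 2.73, 4.83 and 8.13 FPKM in later sham kidneys. The day-1 groups overlapped and both lay far above the later sham kidneys, with a log2 fold of 5.29 ± 0.25 over later sham and -0.07 over Sham_1d (limma adjusted p = 0.844). The thioesterase Acot2 also rose over later sham kidneys (1.77 ± 0.11), and was lower than in Sham_1d kidneys (-1.02).

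The omega-hydroxylase Cyp4a14 was at 12.9, 10.8 and 3.34 FPKM in UIR_1d kidneys and 713, 922 and 1132 FPKM in Sham_1d kidneys. In Sham_3d kidneys it was at 176, 153 and 173 FPKM and in Sham_3w kidneys at 5.58, 21.4 and 26.7 FPKM, so that 1 Sham_3w value lay within the UIR_1d range. The log2 fold over all later sham kidneys was -2.54 ± 0.39 (limma adjusted p = 2.21e-05), and against Sham_3w alone it did not pass (-0.84, limma adjusted p = 0.109). Cyp4a10, with which it shares sequence, fell by 2.42 on the log2 scale. Cyp4a10 too was highest in Sham_1d kidneys (mean 844.5 FPKM, against 40.0 FPKM in UIR_1d and 207 FPKM in later sham kidneys).

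Genes of NAD synthesis and of the kynurenine route from tryptophan were lower at 12 of 14 and higher at none, with a median log2 fold of -1.79. Acmsd, which diverts tryptophan carbon away from NAD, was at 11.6, 12.3 and 2.67 FPKM in UIR_1d kidneys, 5.02, 7.14 and 5.41 FPKM in Sham_1d kidneys and 54.8, 66.5 and 77.3 FPKM in later sham kidneys. Kmo, the kynurenine hydroxylase, was at 14, 15.1 and 5.91 FPKM in UIR_1d kidneys, 35.9, 32.1 and 39.1 FPKM in Sham_1d kidneys and 59.9, 68.3 and 73 FPKM in later sham kidneys. Both were below all later sham values in both day-1 groups. Haao (-2.47 ± 0.27), the dioxygenase that follows, and Qprt (-2.08), which makes the first nucleotide of the route, fell. Nampt, the salvage enzyme, did not pass (-0.14).

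Mitochondrial energy genes fell broadly by small steps. The tricarboxylic acid cycle was lower at 21 of 22 and higher at none (median -0.76), and the respiratory chain with ATP synthase was lower at 67 of 71 and higher at none (median -0.58). Idh2, the mitochondrial isocitrate dehydrogenase, was at 86.6, 74.5 and 74.2 FPKM in UIR_1d kidneys, 135, 155 and 162 FPKM in Sham_1d kidneys and 227, 234 and 244 FPKM in later sham kidneys, with no overlap among the 3 groups. Malate dehydrogenase Mdh1 (-1.33 ± 0.14), the succinate dehydrogenase anchor Sdhc (-1.12 ± 0.09) and the complex I subunits Ndufs7 (-1.47 ± 0.11) and Ndufs1 (-1.36 ± 0.14) fell. For the respiratory chain 64 of the 71 members were also lower in Sham_1d than in later sham kidneys (14.1% over all genes), with a median log2 fold of -0.46. Between UIR_1d and Sham_1d 17 were lower and 4 higher (31.1% and 28.5% over all genes), with a median of -0.10.

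Amino acid catabolism was lower at 37 of 39 and higher at 1, with a median log2 fold of -1.77. Hpd, a dioxygenase of tyrosine breakdown, was at 2.02, 2 and 0.72 FPKM in UIR_1d kidneys, 45.7, 38.6 and 44.3 FPKM in Sham_1d kidneys and 12.9, 31 and 35.1 FPKM in later sham kidneys. Gatm, which makes the precursor of creatine, was at 92.3, 68.9 and 20.4 FPKM in UIR_1d kidneys, 23.7, 66.5 and 23.4 FPKM in Sham_1d kidneys and 254, 334 and 466 FPKM in later sham kidneys. Sham_1d kidneys held the highest Hpd values, whereas at Gatm they overlapped the UIR_1d kidneys. Cbs (-2.64 ± 0.26), of homocysteine removal, fell. Glud1, the glutamate dehydrogenase, was the member that passed as higher, at 179, 170.2 and 147 FPKM in UIR_1d kidneys, 432, 434 and 468 FPKM in Sham_1d kidneys and 133, 143 and 149 FPKM in later sham kidneys. Its UIR_1d and later sham values overlapped, the log2 fold was 0.21 ± 0.07 (limma adjusted p = 0.0158), and it did not pass without UIR_1d replicate 1 (0.0946) or replicate 2 (0.0616), nor after median-of-ratios scaling (log2 fold 0.09, 0.385).

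Cholesterol synthesis was lower at 14 of 23 and higher at 6. Idi1, the isopentenyl diphosphate isomerase, was at 8.38, 11.3 and 8.68 FPKM in UIR_1d kidneys, 6.83, 9.3 and 7.42 FPKM in Sham_1d kidneys and 52.9, 61.6 and 76.5 FPKM in later sham kidneys, so that both day-1 groups were low. Hmgcs1 (-2.12 ± 0.15), the cytosolic synthase of the pathway, fell, and the sterol oxidase Msmo1 (1.21 ± 0.18) and squalene synthase Fdft1 (0.88) rose. Scd1, the desaturase that makes oleate, fell to 0.86, 1.12 and 0.91 FPKM in UIR_1d kidneys, against 9.21, 11.4 and 17.3 FPKM in Sham_1d kidneys and 16.8, 27.6 and 44 FPKM in later sham kidneys.

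Enzymes of drug and steroid handling fell with exceptions. Cytochromes P450 were lower at 19 of 27 and higher at 3, and conjugating enzymes lower at 21 of 34 and higher at 6. Cyp7b1 (-2.94 ± 0.33), an oxysterol hydroxylase, Cyp2a4 (-2.69 ± 0.24), which has a near-identical copy in Cyp2a5, and the methyltransferase Inmt (-2.60 ± 0.31) fell. Cyp3a13 (2.35 ± 0.12) rose. Gsta1, a glutathione transferase, was at 81, 76.5 and 102 FPKM in UIR_1d kidneys, 4.43, 3.76 and 5.6 FPKM in Sham_1d kidneys and 0, 0.355 and 1.43 FPKM in later sham kidneys, a log2 fold of 5.87 ± 0.28 (limma adjusted p = 4.53e-11). Its values were apart in the 3 groups, while its family has close copies among which reads may have been divided. All 13 tested genes of a list of androgen-dependent kidney transcripts were lower (median -2.10). Kap, the most abundant of them, was at 10460.0, 9591 and 7089.8 FPKM in UIR_1d kidneys, 26791, 18131 and 23770.2 FPKM in Sham_1d kidneys and 33366, 40670.0 and 51258 FPKM in later sham kidneys. The sex of the mice is not labelled, and its part in these levels was not tested.

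**Figure D3:**
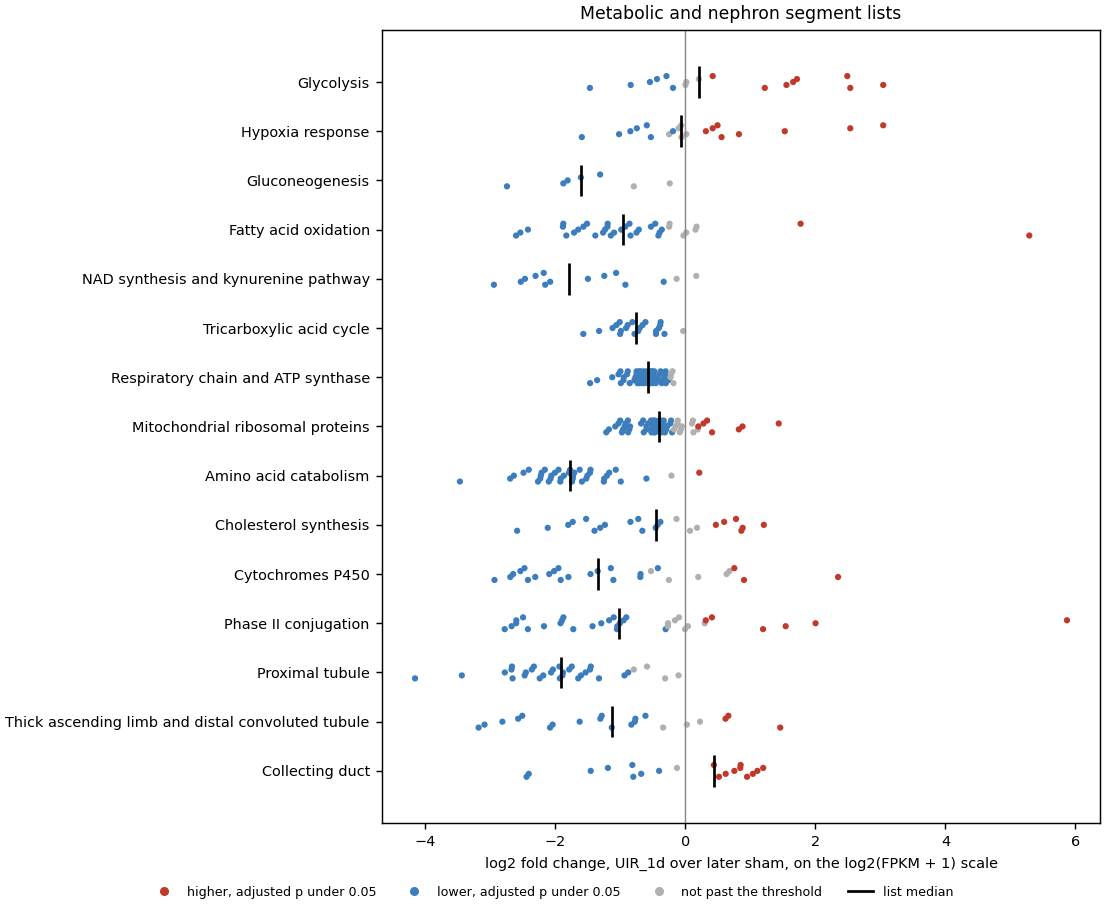
Log2 fold change of UIR_1d over later sham kidneys for each tested member of 15 lists of metabolism and nephron segments, 1 point per gene, with list medians as black bars and the test over all genes as colour. Most points lie left of 0, with the lowest medians for the proximal tubule (-1.91), NAD synthesis and kynurenine pathway (-1.79) and amino acid catabolism (-1.77). Pdk4 (5.29) in fatty acid oxidation and Gsta1 (5.87) in conjugation lie far to the right.

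Markers of the nephron segments fell most in the proximal tubule. Of 32 proximal tubule markers tested, 28 were lower and none higher, with a median log2 fold of -1.91. In RNA of kidney tissue, fewer cells of a type and less RNA per cell cannot be told apart. Slc22a7, an organic anion carrier, was at 1.18, 2.17 and 2.61 FPKM in UIR_1d kidneys, 41.4, 17.9 and 26.3 FPKM in Sham_1d kidneys and 33.2, 55.1 and 71.7 FPKM in later sham kidneys, a log2 fold of -4.16 ± 0.25 (limma adjusted p = 6.73e-10). Hnf4a, the nuclear receptor that maintains proximal tubule identity, was at 53.1, 48.9 and 30.3 FPKM in UIR_1d kidneys, 230.4, 204 and 201 FPKM in Sham_1d kidneys and 247, 279 and 307 FPKM in later sham kidneys. The 3 groups stood apart at Hnf4a, with a log2 fold of -2.67 ± 0.21 over later sham, while Sham_1d over later sham did not pass (-0.39, limma adjusted p = 0.15). Slc34a1, the phosphate carrier, was instead lower in both day-1 groups, at 1137, 887 and 445 FPKM in UIR_1d kidneys, 953, 1104 and 1097 FPKM in Sham_1d kidneys and 2677, 2914 and 3252 FPKM in later sham kidneys. Its log2 fold was -1.94 ± 0.47 over later sham, and UIR_1d over Sham_1d did not pass (-0.45, limma adjusted p = 0.493). UIR_1d replicate 3 was the lowest library at Hnf4a, Slc34a1 and Slc7a13 (-3.44 ± 0.42), a carrier of the straight segment. The glucose carrier Slc5a2 (-0.59), the sodium proton exchanger Slc9a3 (-0.31) and the amino acid carrier Slc6a19 (-0.11) did not pass. Slc9a3 did so without UIR_1d replicate 1 (-0.75, limma adjusted p = 0.034).

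Several further transcripts were among the largest decreases of the comparison. Mep1b, a brush border metalloprotease, was at 1.09, 0.8 and 0.63 FPKM in UIR_1d kidneys, 8.69, 4.95 and 5.84 FPKM in Sham_1d kidneys and 34.4, 41.8 and 89.5 FPKM in later sham kidneys, a log2 fold of -4.69 ± 0.22. The organic anion carriers Slc22a13 (-4.31 ± 0.24) and Slc22a19 (-3.96 ± 0.18) were under 1 FPKM in all UIR_1d kidneys. Sucnr1 (-3.72 ± 0.34), the succinate receptor, Hykk (-3.86 ± 0.27), a hydroxylysine kinase, and Akr1c14 (-3.56 ± 0.27), a steroid reductase, followed, with Mettl7a2 (-3.90 ± 0.31), Serpina1d (-4.67 ± 0.37) and Serpina1f (-3.68 ± 0.33). Members of the Serpina1 family have near-identical copies and are uncertain as single genes. Keg1, abundant in later sham kidneys, was at 150.4, 213 and 47.7 FPKM in UIR_1d kidneys, 663, 548 and 513 FPKM in Sham_1d kidneys and 1196, 1299 and 1473 FPKM in later sham kidneys.

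Markers of the thick ascending limb and distal convoluted tubule were lower at 15 of 21 and higher at 3. Kcnj1, the potassium channel ROMK, was at 4.31, 7.83 and 8.06 FPKM in UIR_1d kidneys, 39.9, 62.9 and 44.4 FPKM in Sham_1d kidneys and 50.9, 71 and 76 FPKM in later sham kidneys. Cldn10 (-3.09 ± 0.24), a claudin for cations, Bsnd (-2.57 ± 0.15), the chloride channel subunit barttin, and Slc12a1 (-2.51), the target of loop diuretics, fell. Umod, the uromodulin of the same segment, was at 1347, 988 and 982 FPKM in UIR_1d kidneys, 806, 909 and 848 FPKM in Sham_1d kidneys and 552, 664 and 932 FPKM in later sham kidneys. It rose slightly (0.66 ± 0.14, limma adjusted p = 0.000621), as did the magnesium channel Trpm6 (1.46 ± 0.20).

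Collecting duct markers split into 10 higher and 8 lower of 19 tested. Among the higher ones were genes of intercalated cells, namely the chloride bicarbonate exchanger pendrin, Slc26a4 (limma adjusted p = 0.000233), the transcription factor Foxi1 (1.11 ± 0.18) and the bicarbonate carrier Slc4a9 (0.95 ± 0.12). Slc26a4 was at 51.5, 95.2 and 50.6 FPKM in UIR_1d kidneys, 11.2, 13.4 and 14.1 FPKM in Sham_1d kidneys and 19.6, 29 and 30.1 FPKM in later sham kidneys, so that the Sham_1d values lay below both other groups. Fxyd4 (1.04 ± 0.13), a regulator of the sodium pump, rose. Hsd11b2 (-2.44 ± 0.20), which protects the mineralocorticoid receptor from glucocorticoids, and Slc4a1 (-2.41 ± 0.28), the anion exchanger of acid-secreting intercalated cells and of red cells, fell. Against Sham_3d alone the split was 7 higher and 8 lower, and without UIR_1d replicate 2 it was 8 and 8. Podocyte markers were higher at 7 of 14 and lower at 2, and endothelial markers higher at 7 of 18 and lower at 4. Over all genes tested 39.6% were higher and 32.0% lower, so the higher share of endothelial markers was near that of all genes.

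Cytokine and chemokine genes were higher at 17 of 23 tested (27 listed) and lower at 2. A gene can pass the filter through the 3 UIR_1d libraries alone, which tilts such counts among low genes toward higher. Cxcl2, a neutrophil chemokine, was at 120.2, 47.5 and 30.3 FPKM in UIR_1d kidneys, 1.2, 0.65 and 1.38 FPKM in Sham_1d kidneys and 0.06, 0.065 and 0.18 FPKM in later sham kidneys. Cxcl1, a relative with the same receptor, was at 180.3, 63.2 and 41.8 FPKM in UIR_1d kidneys, 13.3, 7.38 and 24.5 FPKM in Sham_1d kidneys and 0.34, 0.56 and 1.74 FPKM in later sham kidneys. UIR_1d replicate 1 was highest at both, with log2 folds of 5.70 ± 0.30 and 5.50 ± 0.39. Lif (4.02 ± 0.39), of the interleukin 6 family, and Il34 (2.45 ± 0.26), a ligand of the macrophage growth factor receptor, rose. Against Sham_1d kidneys Lif was higher (1.36, limma adjusted p = 0.0154) and Il34 did not pass (0.02, limma adjusted p = 0.956). Cxcl12, a chemokine that retains leukocyte precursors, fell to 6.17, 7.6 and 3.42 FPKM in UIR_1d kidneys, against 26.5, 44.1 and 28.9 FPKM in Sham_1d kidneys and 28.5, 32.6 and 47.4 FPKM in later sham kidneys. Il6, Il19, Csf2 and Csf3 were listed but did not pass the filter. Il6 was at 2.56, 6.83 and 0.51 FPKM in UIR_1d kidneys and at most 0.17 FPKM in Sham_1d and 0.06 FPKM in later sham kidneys.

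Neutrophil markers were higher at 12 of 13 tested (18 listed), with a median log2 fold of 2.55. The filter tilts this count toward higher too, since the 3 UIR_1d libraries alone can meet it. S100a9, a subunit of calprotectin, was at 100.4, 92.1 and 60 FPKM in UIR_1d kidneys, 35.9, 8.33 and 28.2 FPKM in Sham_1d kidneys and 0.74, 1.7 and 3.7 FPKM in later sham kidneys. Retnlg, a resistin-like protein of neutrophils, was at 40.7, 48.7 and 17.9 FPKM in UIR_1d kidneys, 8.16, 2.5 and 5.06 FPKM in Sham_1d kidneys and 0, 0.055 and 0.22 FPKM in later sham kidneys. S100a8 (4.72 ± 0.40), the partner of S100a9, rose as well, and UIR_1d replicate 3 was the lowest UIR_1d library at all 3. Ly6g, the usual surface marker of neutrophils, moved the other way, at 1.82, 1.44 and 1.19 FPKM in UIR_1d kidneys, 5.07, 4.15 and 4.45 FPKM in Sham_1d kidneys and 2.52, 3.55 and 4.04 FPKM in later sham kidneys (log2 fold -0.84 ± 0.13). Lcn2 is also made by injured tubules. Without it the 17 other listed genes summed to 132 to 264 FPKM in UIR_1d kidneys, 28.7 to 83.7 FPKM in Sham_1d kidneys and 9.25 to 16.2 FPKM in later sham kidneys. The granule genes Mpo and Elane of immature neutrophils stayed below 1 FPKM in all these libraries. The part of these cells in the other results was not tested.

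Markers of monocytes and macrophages were higher at 10 of 23 and lower at 7 (8 and 8 after quantile normalization), shares near those over all genes tested. Cd14, the lipopolysaccharide co-receptor, was at 55.4, 51.3 and 71.2 FPKM in UIR_1d kidneys, 49.3, 13.7 and 33.3 FPKM in Sham_1d kidneys and 1.25, 1.52 and 1.89 FPKM in later sham kidneys. Cd68 (2.69 ± 0.21), of lysosomes, and the integrin Itgam (2.06 ± 0.22) rose. Csf1r, the growth factor receptor of resident macrophages, was at 4.59, 4.65 and 2.94 FPKM in UIR_1d kidneys, 4.52, 4.07 and 3.64 FPKM in Sham_1d kidneys and 7.36, 11.3 and 11.8 FPKM in later sham kidneys, and the complement gene C1qa (-0.78 ± 0.21) fell with it. Genes of MHC class II presentation were lower at 6 of 10 and higher at 1, with H2-Eb1 (-1.29 ± 0.26) and H2-Aa (-1.26 ± 0.26) lower and the protease Ctss (1.12 ± 0.23) higher. T cell and natural killer cell markers were higher at none and lower at 2 of 15 (none without UIR_1d replicate 2), and B cell and plasma cell markers higher at none and lower at 4 of 6. Their summed levels were 3.45 to 4.68 and 2.08 to 2.72 FPKM in UIR_1d kidneys, against 6.19 to 12.6 and 4.97 to 7.91 FPKM in later sham kidneys. Interferon-stimulated genes were higher at 12 of 24 and lower at 2, with 1 far from the rest, the synthetase-like Oasl1, at 37.4, 26.5 and 25 FPKM in UIR_1d kidneys, 2.36, 2.15 and 2.23 FPKM in Sham_1d kidneys and 0.68, 0.81 and 0.99 FPKM in later sham kidneys. Of the 24, 14 were higher and none lower in Sham_1d over later sham (31.9% and 14.1% over all genes, median 0.45). UIR_1d over Sham_1d gave 2 higher and 6 lower (28.5% and 31.1% over all genes, median -0.003).

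**Figure D4:**
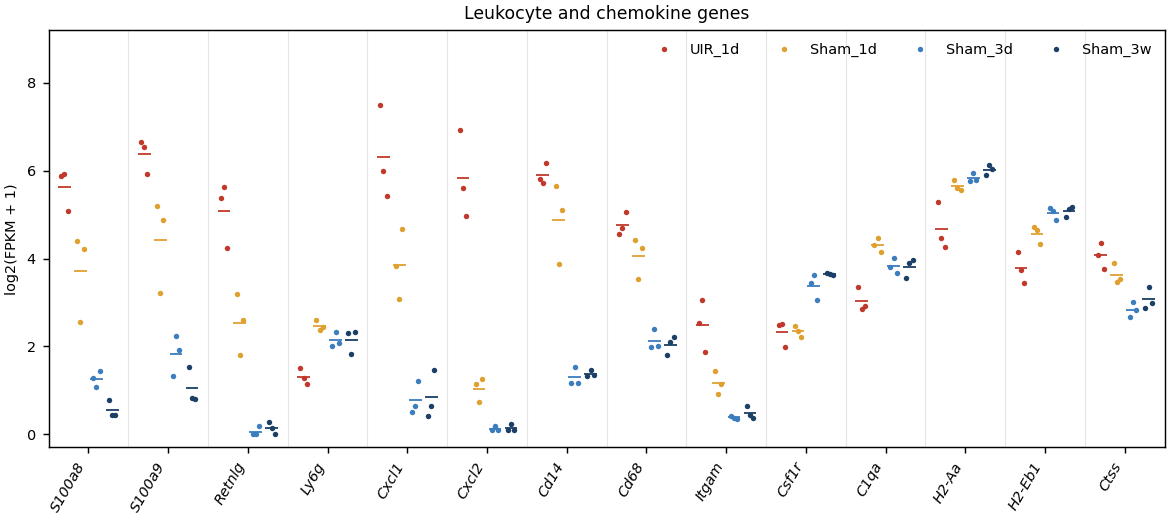
Level of 14 leukocyte and chemokine genes in each library as log2(FPKM + 1), with UIR_1d, Sham_1d, Sham_3d and Sham_3w libraries as points from left to right and bars at the group means (3 libraries each). UIR_1d points are highest at S100a8, S100a9, Retnlg, Cxcl1 and Cxcl2 and lowest at Ly6g, C1qa, H2-Aa and H2-Eb1.

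Acute phase genes and targets of STAT3, the factor activated by interleukin 6 type cytokines, were higher at 19 of 24 and lower at 2, with a median log2 fold of 2.29. Sham_1d over later sham gave 20 higher and 2 lower (31.9% and 14.1% over all genes), with a median of 1.70. Between UIR_1d and Sham_1d 12 were higher and 10 lower (28.5% and 31.1% over all genes), with a median of 0.24. Socs3, the feedback inhibitor of STAT3, was at 80.5, 94.5 and 53 FPKM in UIR_1d kidneys, 12.4, 4.83 and 15.1 FPKM in Sham_1d kidneys and 0.69, 1.09 and 1.56 FPKM in later sham kidneys. The transcription factor Cebpd (3.97 ± 0.25) and the secreted proteins Saa3 (3.82 ± 0.29) and Serpina3n (3.78 ± 0.19) rose, and complement factor B, Cfb (-1.50 ± 0.12), fell. The fibrinogen chains had their highest means in Sham_1d kidneys. Fga was at 42.7, 44.9 and 177 FPKM in UIR_1d kidneys, 534, 213 and 313 FPKM in Sham_1d kidneys and 6.83, 8.62 and 10.6 FPKM in later sham kidneys. Fgg was at 43.3, 46.5 and 179.9 FPKM in UIR_1d kidneys, 487, 199 and 297 FPKM in Sham_1d kidneys and 3.03, 4.49 and 6.93 FPKM in later sham kidneys. UIR_1d replicate 3 came closest to the Sham_1d libraries at both, without reaching their lowest value. Both rose over later sham kidneys (2.88 ± 0.41 and 3.75 ± 0.39) and were lower than in Sham_1d kidneys (-2.22 and -2.08). Fgb (3.62 ± 0.52 over later sham) was lower on average than in Sham_1d kidneys, without passing (-1.26, limma adjusted p = 0.0831). At Fgb UIR_1d replicate 3 (88.6 FPKM) lay within the Sham_1d range (30.9 to 119 FPKM). Complement C3 was at 10, 7.07 and 8.69 FPKM in UIR_1d kidneys, 90.8, 83.3 and 66.2 FPKM in Sham_1d kidneys and 2.74, 3.96 and 6.56 FPKM in later sham kidneys, a rise of 0.83 ± 0.19 over later sham that was small beside the Sham_1d values.

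A number of genes were called in one direction against later sham kidneys and in the other against Sham_1d kidneys. Both comparisons share the UIR_1d libraries, so only the levels are set side by side. Psat1, an enzyme of serine synthesis, was at 49.7, 50 and 52.2 FPKM in UIR_1d kidneys, 124, 103 and 111 FPKM in Sham_1d kidneys and 11.6, 15.4 and 21.8 FPKM in later sham kidneys. Mgst1, a microsomal glutathione transferase, was at 145, 127 and 165 FPKM in UIR_1d kidneys, 281, 310.1 and 342 FPKM in Sham_1d kidneys and 57.5, 64 and 67.4 FPKM in later sham kidneys. Both were raised in the 2 day-1 groups, more in Sham_1d kidneys, as were the mitochondrial carriers Ucp2 (1.15 ± 0.14 over later sham) and Slc25a25 (1.09 ± 0.29). Odc1, the first enzyme of polyamine synthesis, was at 409, 344 and 270.1 FPKM in UIR_1d kidneys, 182, 191 and 157 FPKM in Sham_1d kidneys and 504, 635 and 780.2 FPKM in later sham kidneys. Gas2, a microfilament protein, was at 57.3, 63 and 26.6 FPKM in UIR_1d kidneys, 21.7, 26.2 and 26.5 FPKM in Sham_1d kidneys and 134, 187 and 200.3 FPKM in later sham kidneys. Both were lowered in the 2 day-1 groups, and UIR_1d replicate 3 barely differed from the Sham_1d kidneys at Gas2. The log2 folds over later sham were -0.91 ± 0.15 for Odc1, -1.93 ± 0.25 for Gas2, -1.27 ± 0.20 for the elastase Cela1, -0.96 ± 0.16 for the oxysterol-binding protein Osbp2, -1.24 ± 0.28 for Rnf24 and -1.83 ± 0.20 for Smcp. Polyamine breakdown moved up with Smox (3.73 ± 0.10), the spermine oxidase, and Sat1 (2.31 ± 0.08), the acetyltransferase.

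**Figure D5:**
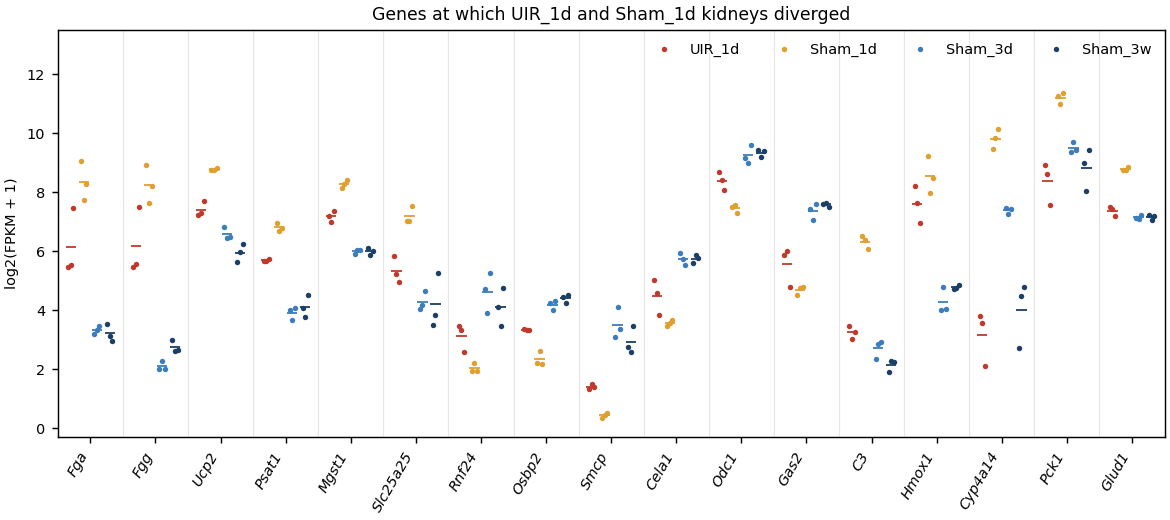
Level of 17 genes in each library as log2(FPKM + 1), with UIR_1d, Sham_1d, Sham_3d and Sham_3w libraries as points from left to right and bars at the group means (3 libraries each). The first 6 genes lie highest and the next 6 lowest in Sham_1d libraries, and C3, Hmox1, Cyp4a14, Pck1 and Glud1 have their highest means there too.

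The most abundant transcripts of UIR_1d kidneys by mean FPKM were Gpx3, Spp1, Kap, Fth1 and Gm20594, and Spp1 came before Kap through UIR_1d replicate 3. Gpx3, the secreted glutathione peroxidase made by proximal tubules, was at 21952, 12116 and 10112 FPKM in UIR_1d kidneys, 24962, 26569.8 and 25973 FPKM in Sham_1d kidneys and 21436, 22630.0 and 25548 FPKM in later sham kidneys. UIR_1d replicate 1 lay within the later sham range and the other 2 far below it, so the fall (-0.74 ± 0.28, limma adjusted p = 0.0287) did not pass without UIR_1d replicate 2 (adjusted p = 0.105) or replicate 3 (0.162). Gpx3 also did not pass with no filter (limma adjusted p = 0.203) or in the fit of the 9 libraries (0.146). The same held with the 6 later sham libraries as 1 group (0.202) and against Sham_3d (0.0631) or Sham_3w (0.0515) alone. Fth1, the ferritin heavy chain that stores iron, was at 9449.6, 7089.5 and 10589 FPKM in UIR_1d kidneys, 9163, 8381 and 9512 FPKM in Sham_1d kidneys and 5801, 6205 and 7140.3 FPKM in later sham kidneys. The groups overlapped through UIR_1d replicate 2, and the log2 fold was 0.51 ± 0.14 (limma adjusted p = 0.00435). Fth1 did not pass limma's threshold with no filter (adjusted p = 0.131), after quantile normalization (log2 fold 0.17, 0.498), in the fit of the 9 libraries (0.0976) or with the 6 later sham libraries as 1 group (0.138). Gm20594, a predicted gene, was at 4228, 6126 and 4554 FPKM in UIR_1d kidneys, 1889.7, 1892 and 1460.2 FPKM in Sham_1d kidneys and 1099, 1599 and 2318 FPKM in later sham kidneys.

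Lists of tissues that a kidney sample can carry along moved in part. The summed level of adipose genes was 388 to 652 FPKM in UIR_1d kidneys, 2095 to 2726 FPKM in Sham_1d kidneys and 306 to 906 FPKM in later sham kidneys. The sum held Pck1, which the proximal tubule also makes. Fabp4, a lipid carrier of fat cells, macrophages and endothelium, rose (2.92 ± 0.23), and the lipid droplet protein Cidec was at 2.34, 1.69 and 1.23 FPKM in UIR_1d kidneys, 6.41, 4.22 and 7.59 FPKM in Sham_1d kidneys and 0, 0.06 and 0.2 FPKM in later sham kidneys. Of 13 adipose genes 7 were below 1 FPKM in all libraries compared, as were 8 of 13 listed skeletal muscle genes and 9 of 12 adrenal genes. Erythroid genes were lower at 3 of 6 and higher at none. Smooth muscle and renin cell genes were higher at 4 of 10 and lower at 3, shares near those over all genes tested (39.6% and 32.0%). Clock genes, which follow the hour of the day, were higher at 9 of 18 and lower at 3, with Per1 (3.03 ± 0.27) and Ciart (2.19 ± 0.38) higher and the output factors Hlf (-2.20 ± 0.18) and Tef (-1.25 ± 0.16) lower. The hour at which kidneys were taken is not labelled, and its part in the results was not tested. The clock element CACGTG stood in 5 of 15 promoters of the list (33.3%), against 1297 of 11448 (11.3%).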

How the data were processed

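RNA of kidney tissue was sequenced, and the authors deposited 1 table of FPKM per gene and library. The submitters' processing notes name the genome mm9 and, among tools, RSEM 1.2.12, HISAT2 2.0.4 and Bowtie2 2.2.5, without a role. Counts were not used here, so the depth behind each value is unknown and no counting interval is given. Genes with at least 1 FPKM in at least 3 of 18 libraries were tested with limma 3.58.1 in R 4.3.3 on log2(FPKM + 1), with a mean per group over all 18 libraries, a trend in the variance, and Benjamini-Hochberg adjustment over 14716 genes. The later sham reference is the mean of Sham_3d and Sham_3w. On simulated data with 200 of 14716 genes changed, 94% of 2-fold and 99% of 4-fold changes were recovered, and 5.39% of calls were false. The changed genes were drawn only from genes well above 0 FPKM in later sham kidneys, with independent normal noise. Here 71.5% of genes were called and low genes were tested too, so these rates need not hold for this comparison. Gene lists and members were chosen with earlier results of these data known. Named genes are the 12 largest changes in each direction without overlap and with a mean of 5 FPKM or more, up to 4 genes per list in its main direction and 2 in the other, up to 6 per direction called oppositely against Sham_1d, the 5 most abundant in UIR_1d, and 12 set markers. Results of a few genes that the rule names are not reported here. Any further list member was named after its values were seen. Replicate numbers did not pair libraries. Symbols stored as dates (27) were restored from gene IDs. The labels call replicates biological without naming animals, so p-values measure the spread between these samples.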

Additional observations from a re-analysis of the deposited data

Results flagged for a closer look

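At 16 of 205 named genes, 1 of the 6 later sham libraries stood apart from the other 5 beyond Dixon's critical value, which chance alone passes in about 1 of 20 groups. Sham_3d replicate 2 was the library apart at 7 of the 16. It was highest at Hspa5 (468.81 FPKM), Pdia4 (73.38 FPKM), Calr (1006.62 FPKM), Mep1b (89.53 FPKM) and Myc (8.42 FPKM), and lowest at Gas2 (133.69 FPKM) and Acad11 (58.44 FPKM). Sham_3w replicate 3 was highest at Hspa1a (47.38 FPKM), its near-identical copy Hspa1b (55.37 FPKM) and Jun (41.25 FPKM). Sham_3w replicate 1 was highest at the macrophage integrin Itgam (0.55 FPKM) and lowest at Cyp4a10 (107.5 FPKM) and the ribosomal protein Rplp0 (428.51 FPKM). Sham_3w replicate 2 was lowest at Haao (108.48 FPKM) and Hpd (12.91 FPKM), and Sham_3d replicate 3 was lowest at Csf1r (7.36 FPKM).

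The fold of Cyp4a14 depended on which later sham group it was set against. Its level in Sham_3w over Sham_3d kidneys differed by a log2 fold of -3.39 (limma adjusted p = 0.0203), with all 3 Sham_3w values below all 3 Sham_3d values.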

How the results depend on the processing

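Over 22 alternatives the number of genes called ranged from 8804 of 11463 tested (a stricter filter) to 11487 of 20825 (no filter), against 10528 of 14716 as reported. The share called was thus highest with the stricter filter and lowest with no filter. Leaving out single libraries gave 9969 to 10455 called, 5481 to 5874 of them higher and 4340 to 4748 lower. The share of called genes that were higher was 55.3%, against 49.1% after median-of-ratios scaling, 48.4% after quantile normalization and 58.4% as TPM. The replicate numbers did not pair the libraries (correlations of same-numbered libraries -0.118 to 0.0891; 3 of 9 libraries correlated best with their own number), and with replicate as a block 10464 genes were called. The count between the later sham groups, Sham_3w over Sham_3d (5), was 12 with a pseudocount of 0.1, 2 with a pseudocount of 5, 8 after median-of-ratios scaling, 11 after quantile normalization, 3 in a fit of 9 libraries, 6 with the replicate block and 1756 with library weights. Leaving out single libraries gave 0 (without Sham_3d replicate 1 or 2) to 419 (without Sham_3d replicate 3), with 108 without UIR_1d replicate 3. The cause was not tested.

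Of 205 named genes, 196 passed limma's threshold, and 7 of these lost it under at least 1 alternative, namely Calr, Col1a1, Cyp4a14, Fth1, Glud1, Gpx3 and Plau. Of those that had not passed, Pck1, Mki67, Nampt, Slc5a2 and Slc9a3 did so under at least 1. Gpx3 turned round after quantile normalization (0.14, limma adjusted p = 0.769). With 2 UIR_1d libraries the exact permutation test of genes at 1 FPKM cannot go below p = 0.0714, the value it gave. Depth could not be judged from FPKM, so low genes have unknown counting error.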
